A study of Mus musculus with 11 samples.

Results

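The genes that copy DNA were compared between CD34+ and CD34- keratinocytes from the back skin of K5-myrAkt(L84) mice. A list of 42 genes of the DNA replication machinery was chosen by function, with earlier results of these data known. Each gene was represented by 1 probe set among those annotated with a single gene symbol. It was the one with the highest mean log2 signal over the arrays. Of the 42 genes, 41 had such a probe set, out of 18193 genes in all. The exception was Chaf1a, a chromatin assembly subunit, which was not analysed here. Tyms, the thymidylate synthase gene, fell under the brightness filter that removed the dimmest 40% of genes. Thus 40 members were tested among 10916 genes. Both cell fractions came from mice that carry the transgene, in which keratin 5 control sequences drive an active, membrane-targeted form of the kinase Akt in basal keratinocytes. Cells were labelled with an antibody to CD34, which marks bulge stem cells of the hair follicle, and separated with magnetic beads. The CD34+ fraction was measured on 5 arrays and the CD34- fraction on 6, each made from 6 µg of total RNA. The labels give no age, sex or hair cycle stage, are silent on whether each array stands for another animal, and name hair follicle stem cells for both fractions, whereas the design text speaks only of CD34- cells for the second. P-values therefore measure only the spread between these samples, which may be technical. No cells of mice without the transgene were analysed here, so an effect of Akt was not measured.

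DNA replication starts at origins that are marked in G1 phase by the origin recognition complex, onto which Cdc6 and Cdt1 load the ring of MCM helicase subunits. In S phase, Cdc45 and the GINS complex turn that ring into a running helicase, polymerase alpha and primase lay down primers, and polymerases delta and epsilon extend them while held on DNA by the PCNA clamp. Most of these genes are transcribed at the transition from G1 to S phase under control of E2F factors, so that their messages are more abundant in cycling cells. Bulge stem cells of the hair follicle are known to divide rarely outside hair growth.

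All 7 bulge markers (Cd34, Krt15, Lgr5, Sox9, Lhx2, Nfatc1 and Tbx1) were higher in CD34+ cells. The rise of Cd34 was set by the separation, which used that antigen. Krt15 (0.47) overlapped between the fractions, at 15.21 to 16.22 on CD34+ arrays and 14.88 to 15.38 on CD34- arrays. Of 5 basal keratinocyte markers 2 were lower in CD34+ cells without overlap, the integrin gene Itga6 (-0.53) and the transcription factor gene Trp63 (-0.38), and Krt5, Krt14 and Itgb4 were not called. Of 5 suprabasal markers Krt10 (0.36) and Lor (1.02) were higher, Krt1 (-0.82) was lower, and Ivl and Flg were not called. The log2 signals of any 2 arrays correlated at 0.829 to 0.931 over all probe sets. The 3-prime over 5-prime signal of beta-actin, a measure of how complete the labelled RNA copies are (a high ratio means short copies), was 2.905 to 5.245 in log2 on CD34+ arrays and 2.19 to 2.76 on CD34- arrays, without overlap. In bulk samples such as these, fewer cycling cells and less message per cell cannot be told apart.

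Of the 40 tested members, 14 fell in CD34+ cells at a limma adjusted p under 0.05, which is 35% of them, and none rose. Over all tested genes 12.3% were lower and 12.4% were higher. Genes for origin licensing (Cdt1, Gmnn), the helicase (Mcm3, Mcm5, Mcm6, Gins2), the clamp and its loader (Pcna, Rfc1, Rfc5), strand joining and chromatin assembly (Lig1, Chaf1b) and nucleotide supply (Rrm1, Dut) were among those that fell, together with 1 of 8 polymerase and primase genes (Prim1). The differences of these 14 ran from -0.54 to -1.14 on the log2 scale, and 3 of them were at least 2-fold. The median difference over all 40 members was -0.37, against 0.00 over all tested genes. Of the 40 differences, 30 were negative, where 50.4% of all genes had a negative difference. At an unadjusted limma p under 0.05, 19 of 40 members were lower, against 20% of all genes lower. The exact permutation test gave a p under 0.05 for 18 of 40 members, against 19% of all genes lower, and called 10 of 40 after adjustment over all genes, against 10.1%. When the fit also held each array's actin ratio, 0 members were called and 30 genes in all were called lower. The medians of that fit were -0.31 over the members and 0.01 over all genes. Because the ratio differed between the fractions without overlap, its part and that of the fraction cannot be told apart. Setting all array medians equal moved the median of all genes by -0.48 and the share of lower calls among all calls from 49.9% to 92.9%. The members then had 29 lower calls of 40, where 47.7% of all genes were lower.

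**Figure D1:**
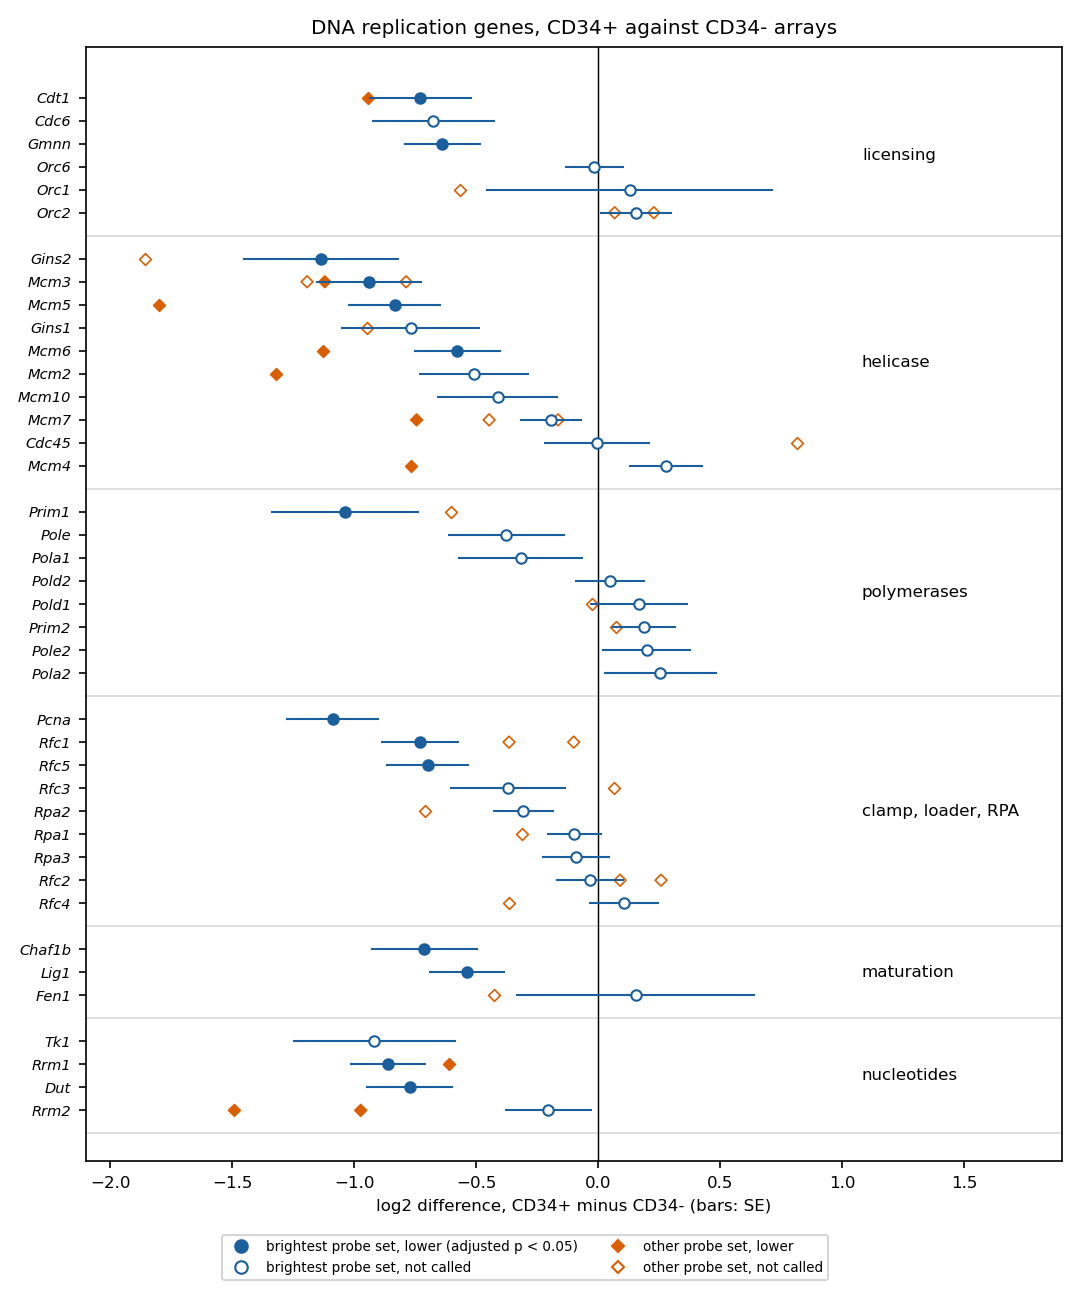
Log2 difference between CD34+ and CD34- arrays (CD34+ minus CD34-, with SE from limma) for the 40 tested members, ordered by step of replication. Filled blue circles are the 14 members that were lower by their brightest probe set, open circles are members not called, and orange diamonds are the other probe sets of the same gene that passed the brightness filter. Filled diamonds mark 10 other probe sets that were lower, 4 of the genes concerned being Mcm2, Mcm4, Mcm7 and Rrm2, whose brightest probe set was not called.

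Start regions of 6 members are shown, because the shared transcription of replication genes is usually traced to E2F sites near their starts. The windows run from 200 bases before to 30 bases after a transcript start in RefSeq on GRCm38.p6, 5′ to 3′ on the gene's strand. Capitals mark matches to the E2F-type letters TTGGCGC or TTCGCGC or TTCCCGC on either strand, where neighbouring matches can overlap. Mcm5, Mcm6, Prim1 and Rrm1 fell and hold at least 1 match, Pcna fell and holds none, and Pola1 was not called and holds 4.
Mcm5, chr8:75109309-75109538, plus strand: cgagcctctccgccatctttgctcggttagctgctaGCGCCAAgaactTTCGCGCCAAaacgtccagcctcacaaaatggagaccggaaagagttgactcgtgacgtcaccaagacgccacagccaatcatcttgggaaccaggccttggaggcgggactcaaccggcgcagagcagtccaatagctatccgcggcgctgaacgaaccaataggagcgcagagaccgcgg
Mcm6, chr1:128359676-128359905, minus strand: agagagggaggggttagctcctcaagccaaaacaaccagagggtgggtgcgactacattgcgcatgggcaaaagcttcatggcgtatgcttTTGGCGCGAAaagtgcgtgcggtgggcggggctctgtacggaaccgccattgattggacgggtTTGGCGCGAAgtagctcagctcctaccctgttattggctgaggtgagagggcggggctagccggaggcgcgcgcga
Prim1, chr10:128015015-128015244, plus strand: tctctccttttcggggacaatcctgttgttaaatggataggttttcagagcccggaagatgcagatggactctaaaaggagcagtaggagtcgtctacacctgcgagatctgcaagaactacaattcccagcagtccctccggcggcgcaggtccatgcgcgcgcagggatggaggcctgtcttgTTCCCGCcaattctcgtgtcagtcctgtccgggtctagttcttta
Rrm1, chr7:102441495-102441724, plus strand: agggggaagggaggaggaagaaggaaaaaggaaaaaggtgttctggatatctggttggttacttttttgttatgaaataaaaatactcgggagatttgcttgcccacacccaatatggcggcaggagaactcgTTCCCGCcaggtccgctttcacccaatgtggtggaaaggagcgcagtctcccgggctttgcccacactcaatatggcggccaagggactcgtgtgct
Pcna, chr2:132253151-132253380, minus strand: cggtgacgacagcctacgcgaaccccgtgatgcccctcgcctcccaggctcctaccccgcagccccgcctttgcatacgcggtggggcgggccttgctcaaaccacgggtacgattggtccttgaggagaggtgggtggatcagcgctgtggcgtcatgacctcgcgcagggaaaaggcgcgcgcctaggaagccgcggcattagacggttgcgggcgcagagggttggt
Pola1, chrX:93632126-93632355, minus strand: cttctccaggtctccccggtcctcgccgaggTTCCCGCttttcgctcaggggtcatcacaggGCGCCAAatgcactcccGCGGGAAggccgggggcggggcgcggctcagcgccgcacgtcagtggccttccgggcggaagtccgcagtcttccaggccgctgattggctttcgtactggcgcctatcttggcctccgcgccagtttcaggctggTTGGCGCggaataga

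Among 35 members in the promoter table, 21 (60%) had an E2F-type match within 250 bases before to 50 bases after a start, against 17.1% of the 8890 genes that were both tested on the arrays and in the table. Of all windows of that length in the table, 8.07% held one. Mcm6 holds 5 matches in this wider window, of which 4 lie in the shorter one shown. Those 4 are an overlapping pair at 109 and 106 bases before its start and another pair at 46 and 43 bases. Mcm5 has its 3 matches between 164 and 149 bases before the start, and those of Rrm1 and Prim1 lie 67 and 15 bases before it. The match was found in 9 of 12 members that fell (75%) and in 11 of 21 that were tested and not called (52.4%). The difference between these shares was not tested, and the match is a run of letters and not a measured binding site. The letters CCAAT, on either strand, were present for 22 of 35 members (62.9%) and 42.6% of the tested genes. TTTGAA, the letters of a cell cycle element of late genes, was found for 4 of 35 members (11.4%) and 14.1% of tested genes. No window was used here for Gmnn, Mcm4, Gins1, Gins2, Prim2, Pole or Rfc2.

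Of the 6 origin licensing genes 2 fell, Cdt1 and Gmnn (33.3%, against 12.3% of all tested genes), and none rose. The median of this step was -0.33. Cdt1, which brings the MCM ring to the origin, had log2 signals of 10.22, 11.04, 10.86, 10.68 and 10.81 on CD34+ arrays 1 to 5, against 10.84 to 11.90 with a median of 11.59 on CD34- arrays. The fractions overlapped through CD34- arrays 1 and 2, at 10.94 and 10.84. The difference was -0.73 (SE 0.21, limma adjusted p = 0.0239), and a dimmer probe set gave -0.94 (SE 0.24, adjusted p = 0.0162). The mean of all Cdt1 probe sets, with one below the brightness filter, gave -0.32 (adjusted p = 0.507). Without CD34- array 3 or without CD34- array 4 the adjusted p was 0.0551 and 0.0553. Gmnn, which encodes geminin, the inhibitor that binds Cdt1 to prevent a further round of licensing, had 9.23, 10.001, 9.69, 9.84 and 9.87 on CD34+ arrays, and 9.95 to 10.54 with a median of 10.45 on CD34- arrays. It fell by 0.64 on the log2 scale (SE 0.16, adjusted p = 0.0114). All but CD34+ array 2 lay under the lowest CD34- value of Gmnn, which was that of array 1.

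Cdc6, the ATPase that works with Cdt1, differed by -0.68 (SE 0.25, adjusted p = 0.0621). Cdc6 was called when CD34+ array 4 (adjusted p = 0.0340) or CD34- array 1 (0.0388) was left out, after quantile normalization (-1.02, adjusted p = 0.0182) and without the intensity trend (0.0476). Orc2 and Orc6, subunits of the origin recognition complex, had differences of 0.15 (SE 0.15) and -0.02 (SE 0.12), with 95% intervals of -0.16 to 0.47 and -0.27 to 0.24. Orc1, the subunit that comes and goes with the cell cycle, was dim and gave no stable value, with 4.33 on CD34+ array 1 and 7.30 to 7.91 on the other CD34+ arrays. Its difference was 0.13 (SE 0.59, adjusted p = 0.891), and it was -0.57 (SE 0.44) on another probe set.

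Of the 10 helicase genes 4 fell (40%, against 12.3% of all tested genes) and none rose, with a median of -0.54. Mcm3, a subunit of the ring, had 8.34, 9.22, 9.53, 8.93 and 9.02 on CD34+ arrays, and 9.35 to 10.35 with a median of 9.97 on CD34- arrays. Only CD34+ array 3 reached into the range of the CD34- arrays, and of those only array 2, at 9.35, lay below it. The difference was -0.94 (SE 0.22, adjusted p = 0.00782). Mcm5, another ring subunit, had 10.36, 11.53, 11.06, 11.14 and 10.96 on CD34+ arrays, and 11.43 to 12.15 with a median of 11.97 on CD34- arrays. CD34+ array 2 alone overlapped with the CD34- range. The difference of Mcm5 was -0.83 (SE 0.19, adjusted p = 0.00759).

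Mcm6 fell less, from a mean of 11.51 ± 0.30 (SD, n = 6) to 10.93 ± 0.34 (SD, n = 5), a difference of -0.58 (SE 0.18, limma adjusted p = 0.0312). Its call was lost without CD34+ array 1 or 4 or CD34- array 3, 4, 5 or 6, with a highest adjusted p of 0.0701. Quantile normalization also lost it (-0.49, adjusted p = 0.0708). A second, dimmer probe set of Mcm6 gave -1.13 (SE 0.18, adjusted p = 0.00132), but the mean of all its probe sets, which takes in one below the brightness filter, gave 0.10 (adjusted p = 0.837). Gins2, a subunit of the GINS complex that activates the ring, had 8.18, 7.09, 9.16, 8.62 and 9.15 on CD34+ arrays, and 9.04 to 9.96 with a median of 9.63 on CD34- arrays. CD34+ arrays 3 and 5 lay within the CD34- range and array 2 far below it. Its difference of -1.14 (SE 0.32, adjusted p = 0.0206) was the lowest of all members. It was -0.60 without CD34+ arrays 1 and 2 (adjusted p = 0.0626).

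The members of this step that were not called by their brightest probe set were mostly negative. Gins1, the partner of Gins2, differed by -0.77 (SE 0.28, adjusted p = 0.0612), and was called without CD34+ array 2 (adjusted p = 0.0281). Mcm2 differed by -0.51 (SE 0.23, adjusted p = 0.11), and was called by the mean of its probe sets (-0.91, adjusted p = 0.0249). Mcm10, a scaffold that links the helicase to polymerase alpha, differed by -0.41 (SE 0.25), and its call was gained without CD34+ array 2 (adjusted p = 0.0484). Mcm7 gave -0.19 (SE 0.13), and Cdc45, which completes the active helicase, gave -0.01 (SE 0.22). Mcm4 alone was positive, at 0.28 (SE 0.15, adjusted p = 0.19).

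The probe sets of the 6 ring subunits did not give the same answer. Mcm4 was measured at 12.31, 12.16, 11.92, 11.93 and 12.37 on CD34+ arrays by its brightest probe set, whose name ends in _x_at. Affymetrix gives that ending to probe sets with probes that may also match other transcripts. The brightest probe sets of Mcm5 and Mcm6, both called lower, have the same ending. So do those of Pold1, Fen1 and Rrm2, which were not called. The other probe set of Mcm4 gave -0.77 (SE 0.14, adjusted p = 0.00310), opposite in sign. For Mcm2 the dimmer probe set gave -1.32 (SE 0.32, adjusted p = 0.0123), and for Mcm7 the dimmest of 4 gave -0.75 (SE 0.16, adjusted p = 0.00540). When every probe set was fitted by itself, each of the 6 ring subunits Mcm2 to Mcm7 had at least 1 probe set that fell, and none had 1 that rose. In that fit 9.77% of all probe sets were lower and 11% higher. At least 1 probe set was lower for 15% of all genes with a passing probe set. For genes with over 1 passing probe set that share was 21.9%.

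**Figure D2:**
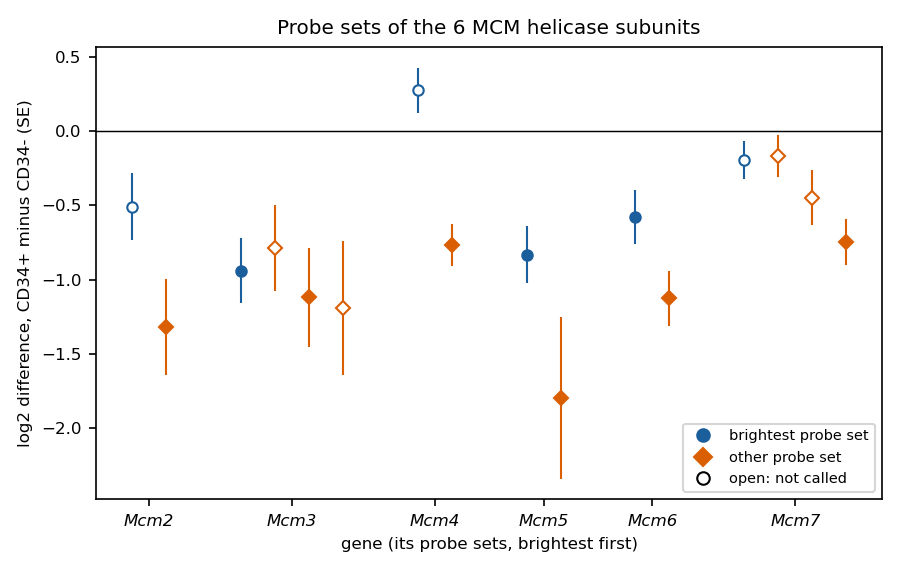
Log2 difference (CD34+ minus CD34-, SE) of each probe set of the 6 MCM ring subunits that passed the brightness filter, ordered from bright to dim within a gene. Each subunit has at least 1 filled symbol, a probe set that was lower, and the brightest probe set of Mcm4 lies above 0 at 0.28. Over all genes with over 1 passing probe set, 21.9% had at least 1 that was lower.

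Of the 8 polymerase and primase genes 1 fell (12.5%, near the 12.3% of all tested genes) and none rose, with a median of 0.11. The difference between this step and the others was not tested. Prim1, the catalytic primase subunit, had 8.53, 10.20, 10.31, 10.52 and 10.68 on CD34+ arrays, and 10.75 to 11.32 with a median of 11.16 on CD34- arrays. The fractions did not overlap, and CD34+ array 1 lay well below all others. Prim1 differed by -1.04 (SE 0.30, adjusted p = 0.0245). Without CD34+ array 1 its difference was -0.66, still called, and without CD34- array 3 its adjusted p was 0.0516. A second probe set of nearly the same brightness gave -0.60 (SE 0.31, adjusted p = 0.174), and the mean of the Prim1 probe sets gave -0.82 (adjusted p = 0.0557). Array weights gave -0.68 (adjusted p = 0.0135). Holding the actin ratio, the difference of Prim1 was 0.06 (adjusted p = 0.966).

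The other polymerase genes were not called in either direction. Prim2, the large primase subunit, gave 0.19 (SE 0.13, 95% interval -0.09 to 0.47). The catalytic subunit genes Pola1, Pold1 and Pole gave -0.32 (SE 0.26), 0.17 (SE 0.20) and -0.38 (SE 0.24). The accessory subunit genes Pola2, Pold2 and Pole2 gave 0.25 (SE 0.23), 0.05 (SE 0.14) and 0.20 (SE 0.18). The lower bounds of the 95% intervals were -0.86 for Pola1 and -0.89 for Pole. For Prim2, Pold1, Pold2, Pole2 and Pola2, the 5 with a positive difference, they were -0.09, -0.26, -0.26, -0.19 and -0.24. For these 5 that is a smaller drop than that measured for any called member, but calling itself favours large drops. Setting all array medians equal turned these 5 to between -0.43 and -0.23, together with a shift of -0.48 in the median of all genes.

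The clamp gene Pcna had the smallest p of all members. Its log2 signal was 10.79, 11.34, 11.64, 11.85 and 11.96 on CD34+ arrays, and 12.34 to 12.92 with a median of 12.61 on CD34- arrays. The fractions did not overlap, and CD34+ array 1 lay farthest from the CD34- arrays. Pcna was 2.13-fold lower in CD34+ cells (log2 difference -1.09, SE 0.19, adjusted p = 0.00172; exact permutation p = 0.00433, two-sided, the smallest that 5 against 6 arrays can give). Holding the actin ratio, Pcna differed by -0.37 (adjusted p = 0.401). The actin ratios of CD34+ arrays 1 to 5 were 5.245, 4.561, 3.969, 2.905 and 3.057. From array 1 to array 4 the ratio fell at each step while the Pcna signal rose. Array 5 had the highest Pcna signal and a ratio just above that of array 4. A link between ratio and signal among these arrays was not tested.

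Members of the clamp loader, the complex of large and small RFC subunits that opens the clamp and sets it on DNA, were unequal. Rfc1, the large subunit, had 10.06, 9.97, 10.10, 10.34 and 10.30 on CD34+ arrays, and 10.34 to 11.29 with a median of 10.95 on CD34- arrays. The ranges touched at CD34+ array 4 and CD34- array 1. The difference was -0.73 (SE 0.16, adjusted p = 0.00628), while its other probe sets gave -0.37 (SE 0.26) and -0.10 (SE 0.22), neither called. The mean of the Rfc1 probe sets gave -0.40 (adjusted p = 0.0611). Rfc5, a small subunit, had 9.001, 8.86, 9.10, 8.92 and 9.39 on CD34+ arrays, and 9.24 to 10.10 with a median of 9.84 on CD34- arrays. Only CD34+ array 5 overlapped with the CD34- range, and Rfc5 fell by 0.70 on the log2 scale (SE 0.17, adjusted p = 0.0108). Rfc2, Rfc3 and Rfc4 gave -0.03 (SE 0.14), -0.37 (SE 0.24) and 0.11 (SE 0.14) and were not called.

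**Figure D3:**
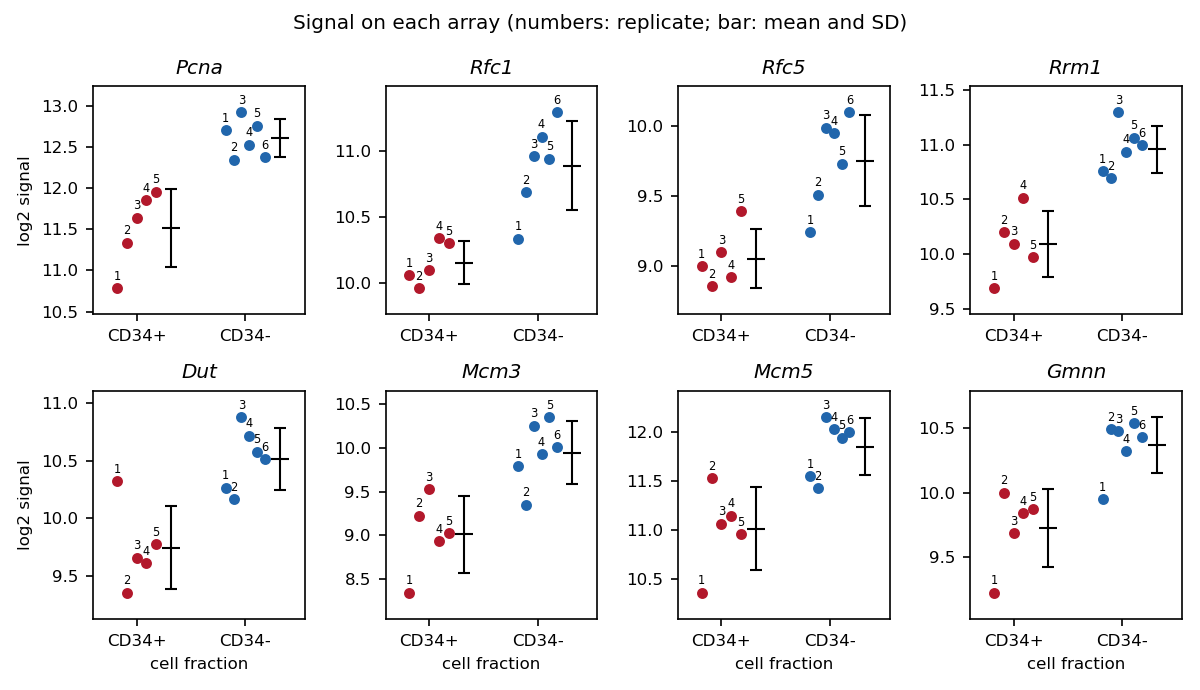
Log2 signal on each array for 8 members that fell, 1 panel per gene with its own vertical axis, with replicate numbers beside the points and the mean and SD of each fraction as a bar. The fractions do not overlap for Pcna and Rrm1, and CD34- arrays 1 and 2 are the lowest of their fraction for Rfc1, Rfc5, Rrm1, Dut, Mcm3 and Mcm5.

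The genes for replication protein A, which coats single-stranded DNA behind the helicase, were not called. Rpa1 and Rpa3 gave -0.10 (SE 0.11) and -0.09 (SE 0.14). Rpa2 differed by -0.31 (SE 0.13, adjusted p = 0.0886) with 9.37, 9.12, 9.42, 9.31 and 9.50 on CD34+ arrays and 9.51 to 9.94 on CD34- arrays. These values of Rpa2 did not overlap although the limma test was not passed. The exact permutation test (p = 0.00433) did call Rpa2 after adjustment over all genes. Lower values without overlap were seen for 4 of 40 members, Pcna, Prim1, Rrm1 and Rpa2, and for 7.37% of all tested genes. Higher values without overlap were seen for 0 members and for 7.64% of all tested genes. Of the 9 genes of the clamp, its loader and replication protein A, 3 fell (33.3%, against 12.3% of all tested genes) and none rose. Their median was -0.31.

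The end of the process is where Okazaki fragments are joined and new DNA is packed. Here 2 of 3 tested genes fell, against 12.3% of all tested genes, with a median of -0.54. Lig1, the ligase that seals Okazaki fragments, had 8.92, 9.61, 9.55, 9.01 and 9.20 on CD34+ arrays, and 9.57 to 10.02 with a median of 9.84 on CD34- arrays. The overlap was between CD34+ array 2 and the lowest CD34- array, array 2. Lig1 differed by -0.54 (SE 0.16, adjusted p = 0.0239), with adjusted p of 0.0520, 0.0505 and 0.0514 without CD34+ array 4, CD34- array 3 and CD34- array 5. Chaf1b, a subunit of the chromatin assembly factor that places histones behind the fork, differed by -0.71 (SE 0.22, adjusted p = 0.0312). It had 7.47, 8.46, 8.38, 8.35 and 7.69 on CD34+ arrays, so that arrays 1 and 5 were low and the other 3 lay within the CD34- range of 8.28 to 9.10. That call was lost without CD34+ array 1 or 5 or CD34- array 3, 4, 5 or 6 (highest adjusted p = 0.0690), and with the mean of the Chaf1b probe sets, of which one was below the brightness filter (-0.46, adjusted p = 0.612).

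Fen1, the flap nuclease that trims primers, was measured at 10.44, 14.17, 10.78, 11.68 and 11.10 on CD34+ arrays and 11.22 to 11.76 on CD34- arrays. The value on CD34+ array 2 decided the sign of its difference, which was 0.15 (SE 0.49) with all arrays and -0.48 without that array (adjusted p = 0.109). This brightest probe set also has a name that ends in _x_at, and the dimmer one gave -0.43 (SE 0.24, adjusted p = 0.205).

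Nucleotide supply had the lowest median of the steps, -0.82 over 4 tested genes. Of these 2 fell, against 12.3% of all tested genes, and none rose. Rrm1, the large subunit of ribonucleotide reductase, which makes deoxynucleotides, had 9.69, 10.20, 10.10, 10.51 and 9.97 on CD34+ arrays, and 10.69 to 11.29 with a median of 10.97 on CD34- arrays. The fractions did not overlap. Rrm1 was 1.82-fold lower in CD34+ cells (log2 difference -0.86, SE 0.16, adjusted p = 0.00211), and a second probe set also fell (-0.61, SE 0.16, adjusted p = 0.0192). The mean of all Rrm1 probe sets, with one below the brightness filter, gave -0.62 (adjusted p = 0.0963). Dut, the enzyme that removes dUTP, had 10.32, 9.36, 9.66, 9.61 and 9.78 on CD34+ arrays, and 10.16 to 10.88 with a median of 10.54 on CD34- arrays. CD34+ array 1, the lowest for most members, was the highest CD34+ array for Dut and the only one to overlap. Its difference was -0.77 (SE 0.18, adjusted p = 0.00794) and, holding the actin ratio, -0.96 (adjusted p = 0.132).

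Rrm2, the small subunit of ribonucleotide reductase, had different values by probe set. Its brightest probe set, an _x_at one, gave -0.21 (SE 0.18, adjusted p = 0.419), while the dimmer ones gave -0.97 (SE 0.21, adjusted p = 0.00704) and -1.49 (SE 0.43, adjusted p = 0.0273). Rrm2 was called by the mean of its probe sets (-0.89, adjusted p = 0.0071). Tk1, the thymidine kinase of S phase, had 8.15, 6.26, 7.96, 7.97 and 8.25 on CD34+ arrays and 7.82 to 9.06 on CD34- arrays. CD34+ array 2 was far below the rest, and the difference was -0.92 (SE 0.33, adjusted p = 0.0574). Leaving out CD34+ array 1, CD34+ array 5 or CD34- array 2 gave Tk1 an adjusted p of 0.0439, 0.0477 or 0.0366. Tyms, which was not tested, read 3.34 to 6.82 on CD34+ arrays and 4.42 to 6.10 on CD34- arrays, all dim.

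Over all probe sets of the members, 72 passed the brightness filter and 24 of them fell, while none rose. Of all passing probe sets 9.77% were lower and 11% higher. At least 1 probe set fell for 18 of the 40 members, against 15% of all genes with a passing probe set. Of 24 members with over 1 passing probe set, 12 had at least 1 that fell, against 21.9% of such genes. Of the 32 passing probe sets other than the brightest, 10 fell, against 8.83% of such probe sets over all genes. Of the 14 members that fell by the brightest probe set, 8 had another that passed, and for 5 of these (Cdt1, Mcm3, Mcm5, Mcm6 and Rrm1) another one fell as well. Gins2, Prim1 and Rfc1 had no other that fell. The like share over all genes that fell by their brightest probe set was not counted. The passing probe sets of 8 members differed in sign. Probe sets of members with names ending in _x_at had a median difference of -0.16 (2 of 11 lower), and those with the plain ending _at one of -0.55 (17 of 42 lower). Over all genes, _x_at probe sets had a median of 0.20 with 5.46% lower, and plain _at ones a median of 0.02 with 9.57% lower.

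Measured against the mean of the CD34- arrays, their median was -0.69, -0.18, -0.42, -0.36 and -0.34 on CD34+ arrays 1 to 5, and -0.19, -0.22, 0.14, 0.18, 0.12 and 0.06 on CD34- arrays 1 to 6. CD34+ array 2 thus reached the level of CD34- arrays 1 and 2 in this median, and CD34+ array 1 stood lowest. For the 14 members that fell, the median was -1.25 on CD34+ array 1 and between -0.74 and -0.62 on the other CD34+ arrays. CD34+ array 1 was the lowest of its fraction for 22 of 40 members, and for 30.5% of all tested genes. On CD34+ arrays 1 to 5 the median of the helicase genes was -1.13, -0.06, -0.42, -0.56 and -0.48. That of the polymerase genes was 0.14, 0.12, -0.14, -0.11 and -0.15, with a sign that differed between arrays.

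Within the CD34- fraction, array 1 or array 2 was the lowest for 34 of 40 members, and for all 14 of those that fell, against 38.4% of all tested genes. These 2 arrays also differed from the other CD34- arrays in markers of other cells. The summed signal of 5 melanocyte markers was 20231 and 22608 on CD34- arrays 1 and 2, and 3540 to 5244 on CD34- arrays 3 to 6. The summed signal of 7 T cell markers was 3322 and 3707 on the former and 5709 to 6466 on the latter. The part of these cells in the spread of the replication genes was not tested. Without CD34- arrays 1 and 2, 17 members were called lower, with all 14 among them, and the median of the members was -0.51, while over all genes 7.11% were lower. Without CD34+ arrays 1 and 2, 12 members were called lower, 11 of them among the 14, with a median of -0.39, while over all genes 8.37% were lower.

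**Figure D4:**
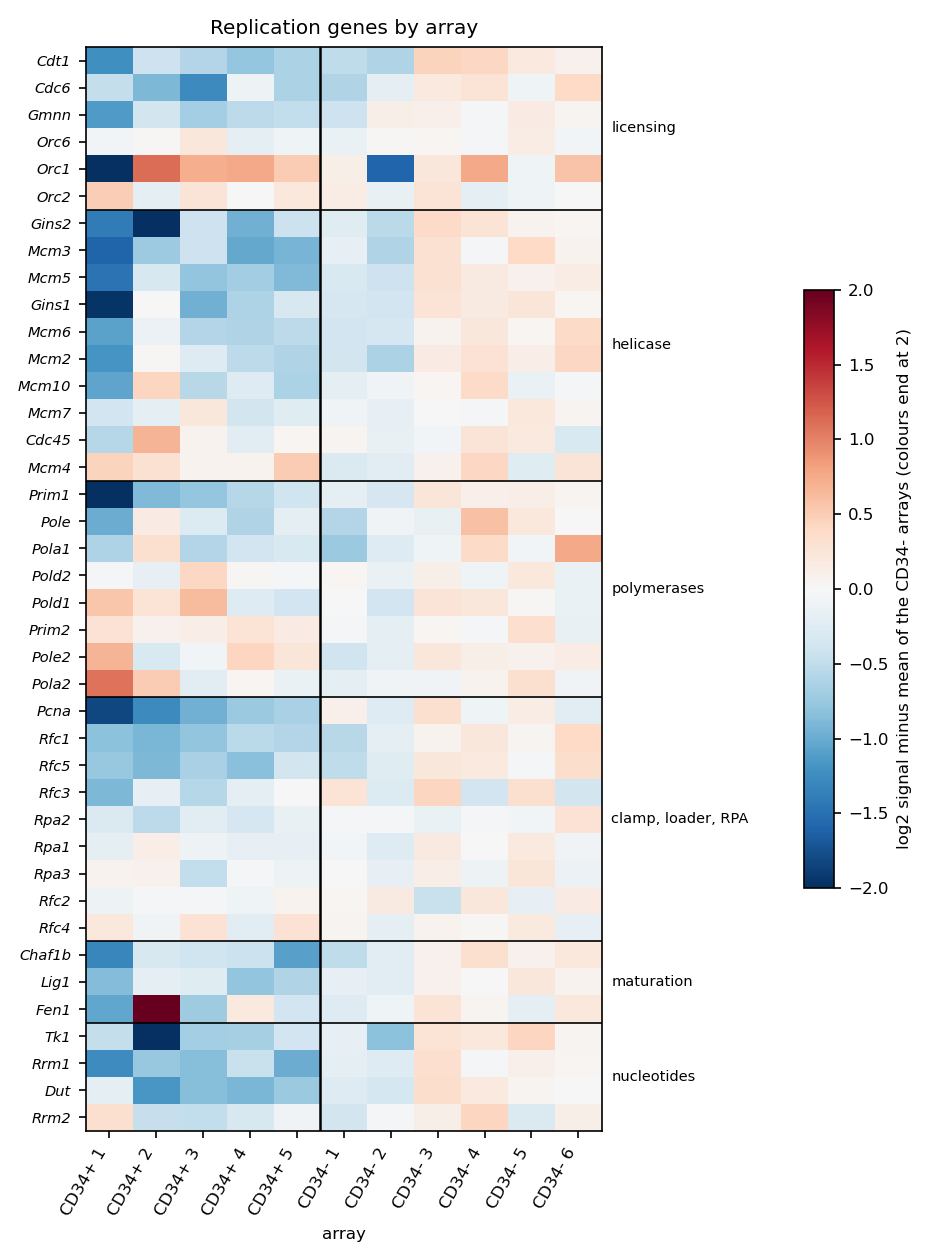
Log2 signal of each tested member on each array minus the mean of the 6 CD34- arrays, with members in rows by step and arrays in columns. Blue marks lower and red higher values, the 14 members that fell are blue on all CD34+ arrays, as their choice favours, and CD34- arrays 1 and 2 are mostly pale blue where CD34- arrays 3 to 6 are mostly pale red. Colours end at a difference of 2.

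Markers of other cell types also moved between the fractions. All 5 tested T cell markers of 7 (Cd3e, Cd3g, Cd7, Thy1 and Ptprc) were lower in CD34+ cells, with a summed signal of all 7 from 553 to 2631 on CD34+ arrays against 3322 to 6466 on CD34- arrays. Among CD34+ arrays the T cell sum was lowest on array 1, where the replication genes were lowest too. The fibroblast sum (8701) and the sum of the bulge markers (102266) were highest on that same array. Of 6 fibroblast markers 3 were tested and all 3 (Col1a2, Dcn and Pdgfra) were higher in CD34+ cells, with sums of 3086 to 8701 against 487 to 856. Of 6 myeloid and Langerhans cell markers 4 were tested, 1 (Csf1r) was higher and none lower, with sums of 1596 to 5206 against 1243 to 1845. None of the 5 melanocyte markers was called, and all 4 endothelial markers were under the brightness filter, with sums of 150 to 329 against 121 to 183. No marker read 0 on any array, but no detection calls were used, so this does not show that a dim marker was expressed. The part of these cells in the results was not tested. The T cell, fibroblast and bulge marker sums and the actin ratio all differed between the fractions without overlap.

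**Figure D5:**
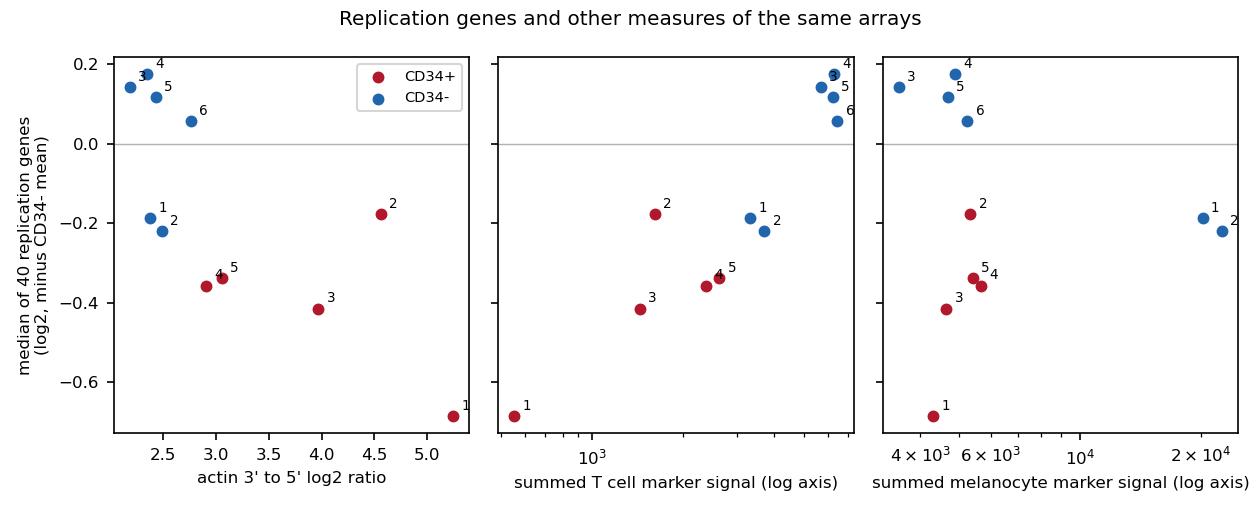
Median of the 40 tested replication genes on each array (log2, minus the CD34- mean) against the actin ratio, the summed T cell marker signal and the summed melanocyte marker signal of the same array (both sums on log axes), with replicate numbers beside the points. CD34+ array 1 has the lowest median at -0.69 with the highest actin ratio and the lowest T cell sum, and CD34- arrays 1 and 2, at -0.19 and -0.22, have the highest melanocyte sums.

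Other genes of the same process were taken from 6 further lists. Of 58 tested genes 14 (24.1%) fell and 3 rose, with a median of -0.25. Over all tested genes 12.3% were lower and 12.4% higher. The difference from the members was not tested. In origin firing 1 of 11 fell (9.09%, under the share of all tested genes), Topbp1, an activator of the helicase (-0.49, SE 0.14). In the list of further helicase and polymerase subunits 1 of 8 fell (12.5%, near that share), the GINS gene Gins4 (-0.53, SE 0.15). In that list 1 rose, the polymerase epsilon subunit gene Pole4 (0.96, SE 0.27), whose other probe set rose as well (0.87, SE 0.21). In fork protection 3 of 12 fell, the ribonuclease H2 subunit gene Rnaseh2b (-0.76, SE 0.16), the checkpoint adaptor gene Clspn (-1.06, SE 0.30) and the clamp loader subunit gene Dscc1 (-0.69, SE 0.22). The topoisomerase gene Top2a fell by 0.84 on the log2 scale (SE 0.14), as 1 of 3, while a dimmer probe set gave 0.77 (SE 0.31, adjusted p = 0.0881).

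Chromatin genes at the fork fell in 4 of 8 cases and rose in 1, where 12.3% of all tested genes were lower and 12.4% higher. The maintenance methylation factor gene Uhrf1 gave -1.19 (SE 0.22) and Slbp, which binds histone messages, gave -0.64 (SE 0.13), with 0.48 (SE 0.27) on a dimmer probe set. Rbbp4, a histone chaperone gene, was called higher by an _x_at probe set (0.41, SE 0.11) and lower by another (-0.82, SE 0.28). Of 16 further nucleotide genes 4 fell (25%) and 1 rose. Those with the smallest p were the kinase gene Dck (-0.88, SE 0.17), the purine synthesis gene Paics (-0.53, SE 0.12) and the purine salvage gene Hprt (-0.53, SE 0.12).

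Among the E2F factors and their pocket protein partners 3 of 12 fell (25%, against 12.3% of all tested genes) and none rose. Their median was -0.23. E2f2, an activating E2F, gave -1.28 (SE 0.26), while a second probe set gave 0.07 (SE 0.21). The pocket protein genes Rbl2 and Rbl1, which hold E2F in check, gave -0.77 (SE 0.20) and -0.67 (SE 0.18). Genes of mitosis were lower in 4 of 19 cases (21.1%) and higher in none, with a median of -0.13. Prc1 (-0.70, SE 0.12), the spindle kinase gene Ttk (-0.75, SE 0.16) and the spindle gene Nusap1 (-0.53, SE 0.18) had the smallest p among them. The proliferation marker gene Mki67 differed by -0.13 (SE 0.11, adjusted p = 0.426) and the S phase and mitotic cyclin gene Ccna2 by 0.05 (SE 0.15), both named after their values were seen.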

How the data were processed

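Total RNA of 5 CD34+ and 6 CD34- samples was measured on single-channel Affymetrix arrays. The authors deposited log2 signals computed by MAS5, a tool named in the submitters' processing notes without version or settings. That they are log2 follows from back-transformed values, whose mean, trimmed by 2% at each end, was 500.002 to 500.004 on every array. They were used without further normalization or detection calls, so a low value is dim and not absent. Precision is limited by the number of arrays (median SE of a log2 difference 0.187).

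Of 45101 probe sets, 34945 had 1 gene symbol in the platform annotation, updated through gene identifiers to GRCm38.p6 names. Differences were tested with limma 3.58.1 in R 4.3.3 (empirical Bayes with intensity trend, Benjamini-Hochberg adjustment over all 10916 genes, called under 0.05); every adjusted p is from limma, and that of another probe set is adjusted over 20967 probe sets that passed their own 40% brightness filter. An exact permutation test over 462 arrangements was an alternative. All members are named; of other lists, the 3 called genes with the smallest p. Members and lists were chosen with earlier results of these data known. The model was tested on simulated data. Promoter letters were searched in RefSeq windows (GRCm38.p6). Alternatives are given in the closing section.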

Additional observations from a re-analysis of the deposited data

Results flagged for a closer look

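Within a fraction, 1 array lay far from the others of its group for the following members, by the gap to its nearest neighbour as a share of the group's range. Chance alone marks about 1 in 20 groups, and 7 of 82 groups were marked. Orc1 was lowest on CD34+ array 1 at 4.33, with the next at 7.30, and on CD34- array 2 at 5.20, with the next at 6.71. Prim1 was lowest on CD34+ array 1 at 8.53, with the next at 10.20. Gmnn was lowest of its fraction on CD34- array 1 at 9.95, with the next at 10.32. Tk1 was lowest on CD34+ array 2 at 6.26, with the next at 7.96. Rpa1 was highest of its fraction on CD34+ array 2 at 12.79, with the next at 12.55, and Rpa2 on CD34- array 6 at 9.94, with the next at 9.63.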

How the results depend on the processing

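No setting called a member higher. Members called lower, and genes lower and higher for CD34+ against CD34- per gene, were 14, 1347 and 1350. Equal array medians gave 29, 5212 and 396, with a median difference of members of -0.85. The actin covariate gave 0, 30 and 96, the brightest 40% of genes 13, 1187 and 743, and the mean of probe sets 10, 783 and 973, with 8 of the 10 among the 14 (Cdt1, Mcm6, Prim1, Rfc1, Chaf1b and Rrm1 lost their calls). Leaving out 1 array gave 9 to 16, 896 to 1419 and 969 to 1370. Both pairs of arrays were chosen after seeing the data: without CD34- arrays 1 and 2 the counts were 17, 776 and 835. The exact permutation test, adjusted over all genes, called 10 members, among them Rpa2, which is not one of the 14. Of the 14, 9 were called whichever array was left out and 12 were negative in every fit. The causes were not tested.

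Signs turned as follows. Quantile normalization gave Orc1 -0.21 and Pold2 -0.051. Equal array medians gave Orc1 -0.35, Orc2 -0.33, Mcm4 -0.20, Pola2 -0.23, Prim2 -0.29, Pold1 -0.31, Pold2 -0.43, Pole2 -0.28, Rfc4 -0.37 and Fen1 -0.33. An offset of 64 gave Cdc45 0.0032. The mean of probe sets gave Orc1 -0.22, Mcm4 -0.24, Mcm6 0.10, Cdc45 0.41, Rfc2 0.10, Rfc4 -0.13 and Fen1 -0.14. Array weights gave Pold1 -0.12 and Rfc2 0.0017. The actin covariate gave Cdc45 0.080, Pola2 -0.40, Prim1 0.059, Pold1 -0.33, Rfc3 0.11 and Fen1 -0.0034. Without CD34+ arrays 1 and 2, Pola2 was -0.10 and Fen1 -0.30. Without CD34- arrays 1 and 2, Orc1 was -0.24 and Rfc2 0.02. With 1 array left out, Orc1 ran from -0.19 to 0.78, Cdc45 from -0.18 to 0.14, Fen1 from -0.48 to 0.45, Pold2 from -0.044 to 0.10, Rpa3 from -0.14 to 0.0069, Orc6 from -0.077 to 0.028 and Rfc2 from -0.12 to 0.011.

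With a replicate block over arrays 1 to 5 of each fraction, 13 members were called lower, 12 of them among the 14, and 981 genes were lower and 1044 higher. Same-numbered arrays correlated in their deviations at 0.162, 0.02, 0.192, 0.129 and 0.038, and arrays of unlike number at -0.228 to 0.202. The numbers were not taken as pairs, but these small positive values do not settle whether the arrays were paired.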
